A study of Mus musculus with 23 samples.

Results

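The 8 genes described here, Trh, Ncam1, Jup, Cav1, Ubash3b, Lat2, Wt1 and Pou4f1, are the mouse counterparts of genes known to be high or altered in acute myeloid leukaemia with the t(8;21) translocation. Probes were taken by the RefSeq accession that the array files pair with them, and the probe with the highest mean stood for its gene. All 8 genes had a probe, among 20145 genes in all, and all 8 passed the filter on low values, which left 15202 genes to test. Their mRNA was followed in mouse embryonic stem (ES) cells as these formed blood cells in culture. The ES cells carried HA-tagged human RUNX1-ETO under a doxycycline-responsive promoter, and all groups without and with Dox came from this line, made from colonies picked after targeting, with both copies of Runx1 intact. The stages were haemogenic endothelium (HE, KIT+ Tie2+ CD41-), HE2 (KIT+ Tie2+ CD41+) and CD41+KIT+Tie2- progenitors, sorted on day 2 of blast culture with or without Dox at 0.1 µg/ml from day 1. The fourth stage, myeloid progenitors, came from day 2 floating progenitors grown in medium with stem cell factor, Flt3 ligand and thrombopoietin and was harvested on day 3 after 12 h with or without Dox. Stage and time in Dox therefore cannot be told apart between myeloid progenitors and the others. Each group had 3 arrays, apart from 2 for progenitors without Dox and 2 for those with Dox, and 1 more array of progenitors without Dox, named as a technical replicate, was kept out of the fit. The titles call the 22 fitted arrays biological replicates, but nothing stated that they came from separate cultures, so that P values measure only the spread between these arrays. No array of cells given Dox without the transgene was analysed here.

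RUNX1-ETO joins the DNA-binding part of RUNX1, a transcription factor required for blood cells to arise from endothelium, to ETO (RUNX1T1), which binds corepressor complexes. The fusion occupies RUNX1 sites and disturbs genes that RUNX1 would switch on or off, while other genes rise. Of the 8 genes, Trh encodes the precursor of thyrotropin-releasing hormone, and Ncam1 encodes the adhesion molecule known on leukaemic cells as CD56. Jup encodes plakoglobin, a catenin of cell junctions, and Cav1 encodes caveolin-1, a coat protein of membrane invaginations. Ubash3b encodes STS-1, a phosphatase that dampens receptor-linked tyrosine kinases, and Lat2 encodes an adaptor that links immune receptors to their effectors. Wt1 and Pou4f1 encode transcription factors, the former a zinc finger protein known from kidney and from acute leukaemia and the latter a POU-domain factor known from sensory neurons.

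Between 48.8% and 78.4% of spots were well above background on an array, 0 spots were saturated, and the value of 1 array for Wt1 was missing because its spot had an outlier flag. The lowest share was that of induced progenitor array 2, which was scanned on another date than the other progenitor arrays of the fit. Intensities below are in arbitrary units after background correction and quantile normalisation, and levels and changes are on the log2 scale of these intensities. As a check of induction, the Runx1t1 probe rose by 1.24 in HE (SE 0.335, adjusted P = 0.0155 in limma), which did not pass the threshold. It rose by 2.08 (HE2), 3.96 (progenitors) and 2.06 (myeloid progenitors), which did pass. Its mean levels with Dox were close, from 11.67 in progenitors to 12.06 in myeloid progenitors. Without Dox they ran from 7.71 in progenitors to 10.81 in HE, so the rises differed mainly through the uninduced level. Whether this signal came from the mouse gene, the human transgene or both was not tested. Runx1 itself did not pass in any stage, with changes from -0.29 to 0.75. Among the sorting markers, Kit and Tek (Tie2) were well above background on every array, and so was Itga2b (CD41), also in HE sorted as CD41-, where it fell by 3.21 with Dox (SE 0.652, adjusted P = 0.00205 in limma). Levels of Tek without Dox averaged 11.95 in HE, 10.67 in HE2 and 8.67 in progenitors, and with Dox 12.91, 12.41 and 11.10. Values from bulk RNA cannot tell fewer cells of a type from less RNA per cell.

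RefSeq promoters (GRCm38.p6) were at hand for 5 of the 8 genes, with 7 start sites. The 250 bases before the start are given for Trh, the gene with the largest change, for Ubash3b, which rose with Dox in 1 stage, and for Pou4f1, whose mean was lower with Dox in all 4 stages without passing the threshold. The lines run from 5′ to 3′ on the gene's strand, and capitals mark TATAA on either strand.
Trh, chr6:92244651-92244900, minus strand: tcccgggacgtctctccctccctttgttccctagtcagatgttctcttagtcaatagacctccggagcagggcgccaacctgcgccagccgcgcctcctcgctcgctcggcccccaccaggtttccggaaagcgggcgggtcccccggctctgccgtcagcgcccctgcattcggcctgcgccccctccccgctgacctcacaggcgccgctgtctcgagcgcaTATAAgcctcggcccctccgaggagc
Ubash3b, chr9:41158063-41158312, minus strand: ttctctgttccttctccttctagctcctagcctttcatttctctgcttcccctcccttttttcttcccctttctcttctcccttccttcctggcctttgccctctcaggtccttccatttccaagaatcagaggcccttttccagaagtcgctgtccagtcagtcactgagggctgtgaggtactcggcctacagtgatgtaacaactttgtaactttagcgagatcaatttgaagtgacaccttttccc
Pou4f1, chr14:104468000-104468249, minus strand: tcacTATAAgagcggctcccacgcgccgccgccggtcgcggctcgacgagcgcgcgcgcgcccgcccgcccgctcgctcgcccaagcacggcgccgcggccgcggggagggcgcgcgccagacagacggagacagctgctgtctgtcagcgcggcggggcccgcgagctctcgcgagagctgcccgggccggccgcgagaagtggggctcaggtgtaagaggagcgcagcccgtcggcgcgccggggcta
A match to the RUNX motif, searched as TGTGGT and TGCGGT on both strands, was found in 0 of the 7 windows, whereas 18.6% of 32851 promoters of the same length held one. The letters TATAA began 26 bases before the start of Trh and 246 bases before that of Pou4f1, were absent from the printed window of Ubash3b, and were present in 4 of the 7 windows and in 22.8% of all. Cytosine and guanine made up 68.8% of the Trh window, 48.4% of that of Ubash3b and 78% of that of Pou4f1. A match is a description of these letters and not of binding.

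A gene counted as called where its unadjusted P in the limma fit across all genes was 0.001 or less and its difference 2-fold or more. Adjusted P values below come from the same fit, by Benjamini-Hochberg over the 15202 genes. With Dox, 2 of the 8 genes were called in HE and both were higher, where 4.70% of all genes were called higher. In HE2 the count was again 2 of 8, both higher, against 5.17% of all genes. In progenitors 4 of 8 were called higher, against 3.03% of all genes, and in myeloid progenitors 3 of 8, against 5.13%. No member was called lower, where 2.39% of genes were in HE, 2.05% in HE2, 0.704% in the progenitors and 1.18% in the myeloid progenitors. The median change of the 8 from stage to stage was 0.47, 0.87, 0.86 and 0.82, whereas that of all genes lay between -0.04 and -0.01. The 8 genes were chosen with earlier results of these data known, so these counts and medians do not test for an excess over all genes. Trh and Ncam1 were called in all 4 stages, Wt1 in progenitors and myeloid progenitors and Ubash3b in progenitors, and Lat2, Jup, Cav1 and Pou4f1 were called in none.

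**Figure D1:**
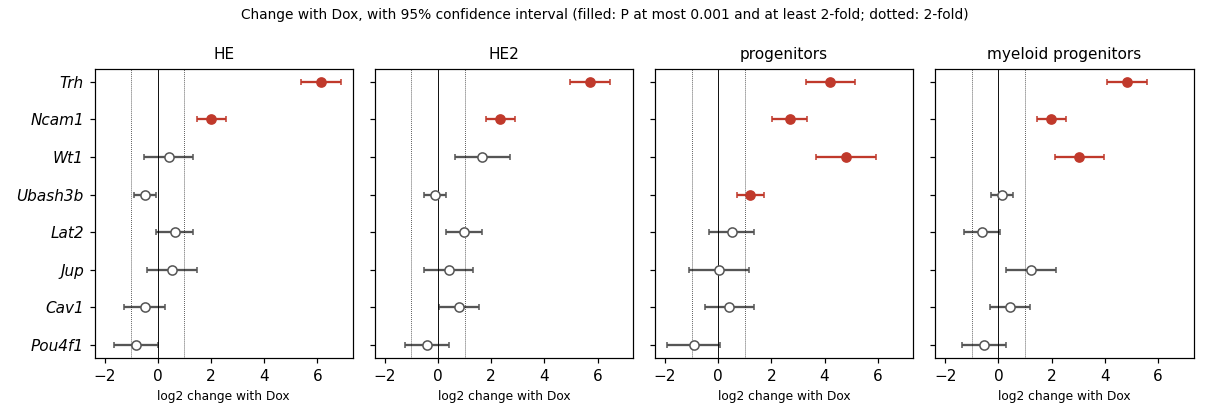
Change with Dox for each gene (vertical axis) on the log2 scale (horizontal axis) in the 4 stages, as points with 95% confidence intervals from the fit; filled points passed the threshold and dotted lines mark a 2-fold change. Trh lies between 4.21 and 6.15 in all stages, Ncam1 between 1.99 and 2.68, and Wt1 moves from 0.42 in HE to 4.81 in progenitors.

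The arrays with and without Dox did not overlap for 2 of the 8 genes in HE, where this held for 25.1% of genes measured on all those arrays. For HE2 it held for 5 of 8, against 32.3%, for progenitors for 7 of 8, against 49.0%, and for myeloid progenitors for 6 of 8, against 46.6%. In progenitors Pou4f1 was the 1 gene of the 7 whose arrays with Dox lay below, and in myeloid progenitors it was also the only 1 of the 6. Induced progenitor array 2 lay on slide 3, and the 2 uninduced progenitor arrays of the fit on slides 1 and 2. The uninduced progenitor array left out of the fit, also on slide 3, read 377 for Pou4f1, between the 2 induced values of 294 and 556.

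Trh, the hormone precursor, was dim without Dox and bright with it at every stage. In HE its intensity was 208, 169.6 and 99.0 without Dox and 14239, 12587 and 6929 with Dox. In HE2 it was 234, 206 and 158 without and 9522, 11115 and 10677 with. All induced arrays of both stages lay far above all uninduced arrays.
In progenitors the values were 74.3 and 54.1 without Dox and 1526 and 899.8 with Dox. In myeloid progenitors they were 38.1, 66.3 and 66.7 without, of which 1 array was well above background, and 2616, 1099 and 1359 with. The groups were thus apart in all 4 stages, and the induced level of the 2 later stages was several-fold below that of the first 2.
In HE expression rose by 6.15 (SE 0.357, adjusted P = 3.51e-09). The rise was 5.73 (SE 0.357, adjusted P = 1.6e-08) for HE2, 4.21 (SE 0.438, adjusted P = 1.17e-05) for progenitors and 4.83 (SE 0.357, adjusted P = 8.18e-08) for myeloid progenitors. Among the rises of 15202 genes these ranked 1 for HE and for HE2, 8 for progenitors and 6 for myeloid progenitors. Within a slide the difference was 6.24 and 6.56 in HE, 5.44 and 6.11 in HE2 and 4.36 in progenitors, and all myeloid progenitor arrays shared 1 slide. In order, the mean log2 levels were 13.39 ± 0.56 (SD) in HE with Dox and 13.35 ± 0.12 in HE2 with Dox, which did not differ beyond their spread, then 10.62 ± 0.65 in myeloid progenitors and 10.19 ± 0.54 in progenitors with Dox, a pair also within its spread. Below them came HE2 (7.62 ± 0.29) and HE (7.25 ± 0.55) without Dox, and then progenitors (5.99 ± 0.32) and myeloid progenitors (5.79 ± 0.46) without Dox, again 2 pairs within their spread.

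**Figure D2:**
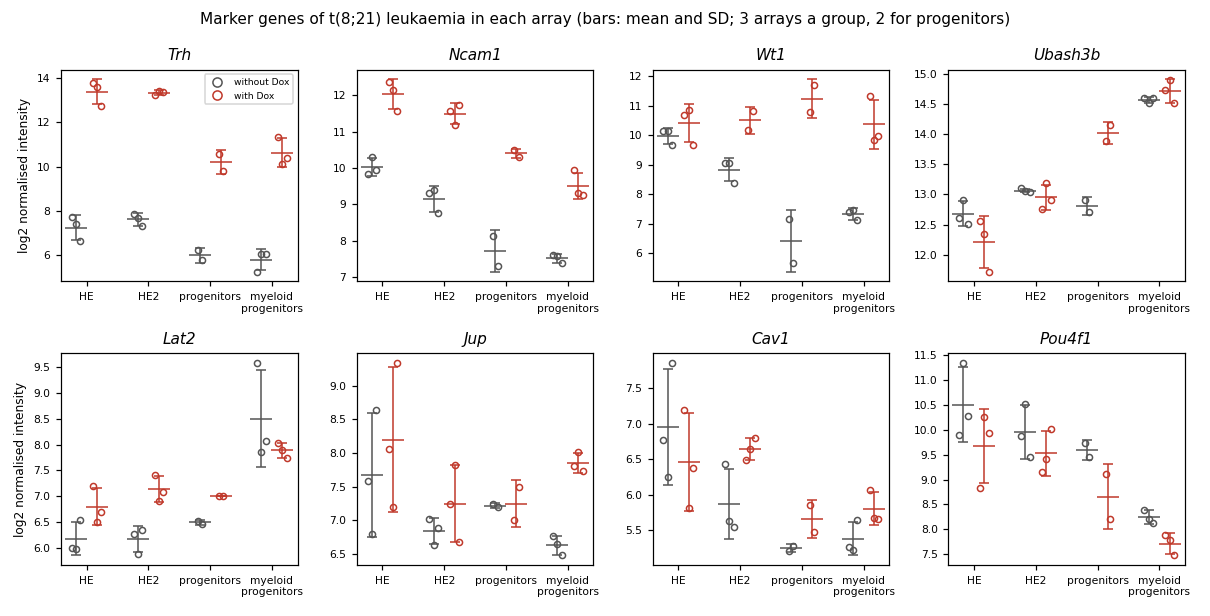
Log2 normalised intensity (vertical axis) of each gene in each array by stage, grey without and red with Dox, with the mean and SD of each group as bars. For Trh and Ncam1 all red points lie above all grey points of their stage, for Wt1 this holds from HE2 on, and for Pou4f1 the red points lie below the grey ones in progenitors and myeloid progenitors.

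Ncam1, which encodes the adhesion molecule CD56, also rose at every stage. Its intensity in HE was 919.8, 1262 and 985 without Dox and 5296, 4539 and 3063 with Dox, and in HE2 it was 639, 674 and 429.5 without and 3037, 2321 and 3404 with. In progenitors it was 278 and 159 without and 1439 and 1269 with, and in myeloid progenitors 194, 189 and 166 without and 976, 640.2 and 614 with. No induced array overlapped the uninduced arrays of its stage.
Ncam1 rose by 2.00 (SE 0.26, adjusted P = 3.21e-05) in HE and by 2.34 (SE 0.26, adjusted P = 9.23e-06) in HE2. It rose by 2.68 (SE 0.319, adjusted P = 4.15e-05) at the progenitor and by 1.99 (SE 0.26, adjusted P = 3.31e-05) at the myeloid progenitor stage. Within slides it was 2.30 and 1.92 in HE, 2.21 and 2.71 in HE2 and 2.37 in progenitors. Mean levels were lower at each later stage in both series, from 12.03 ± 0.41 (HE) through 11.49 ± 0.28 (HE2) and 10.40 ± 0.13 (progenitors) to 9.50 ± 0.37 (myeloid progenitors) with Dox, and from 10.03 ± 0.24 to 9.15 ± 0.36, 7.72 ± 0.57 and 7.51 ± 0.12 without Dox. Of the steps tested, the one from HE2 to progenitors without Dox was called. Neighbours within their spread in the order of all 8 groups were the last 2 of the uninduced series, and induced myeloid progenitors with uninduced HE2.
Ncam1 was the only one of the 8 with more than 1 probe. The second, A_55_P2028942, differed by 1.08, 1.11, 1.01 and 0.96 from HE to myeloid progenitors, and it was well above background on 0 of 3 uninduced myeloid progenitor arrays. The third, A_55_P2050602, differed by -0.05 in HE and -0.08 in HE2, where it was well above background on all arrays, so that the probes disagreed there. In induced progenitors it was well above background on 1 of 2 arrays, and in myeloid progenitors on 0 of 3 uninduced and 1 of 3 induced arrays, and no difference is read from it in those stages. With the mean of all probes of a gene, the change of Ncam1 was still called in all 4 stages, at 1.01 to 1.14.

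**Figure D3:**
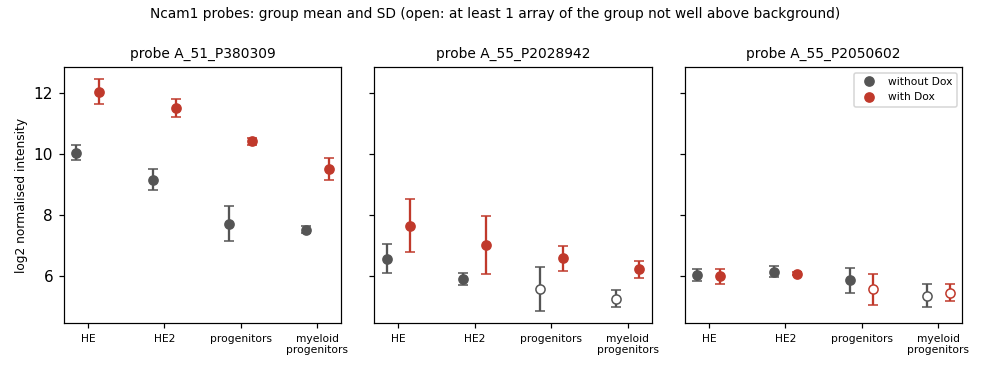
Group mean and SD of the log2 normalised intensity (vertical axis) for each of the 3 probes of Ncam1 by stage (horizontal axis), grey without and red with Dox; open symbols mark groups with an array not well above background. The first probe, used for the gene, and the second are higher with Dox at each stage, and the third is not in HE and HE2, the stages in which all its arrays were well above background.

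Jup, the gene of plakoglobin, passed the threshold in no stage. In HE its intensity ranged from 112 to 397 without Dox and from 146 to 646 with Dox, and in HE2 from 99.6 to 129 and from 103 to 226. In progenitors it was 152 and 146 without and 129 and 181 with Dox. These groups overlapped, with changes of 0.52, 0.40 and 0.03 (95% intervals -0.41 to 1.46, -0.53 to 1.33 and -1.11 to 1.17). Within slides the difference in HE was 0.87 on slide 1 and -0.37 on slide 2, and in progenitors it was -0.24 on slide 1. In myeloid progenitors the values were 109, 100.5 and 89.3 without Dox and 225, 259 and 212 with Dox. Here the groups did not overlap and the change was 1.22 (SE 0.443, adjusted P = 0.0778 in limma), over 2-fold but short of the P threshold. In a fit of only the 6 myeloid progenitor arrays, the same change had an adjusted P of 0.000928 in limma. The highest mean level, 8.20 ± 1.08 in HE with Dox, and the lowest, 6.63 ± 0.14 in myeloid progenitors without Dox, were the ends of an order in which most neighbours lay within their spread.

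Cav1, which encodes caveolin-1, was close to background in most groups. It was not well above background on any uninduced array of progenitors (36.9 and 38.9) or myeloid progenitors (38.4, 37.3 and 50.1). With Dox the intensities were 57.7 and 44.2 in progenitors and 67.0, 51.1 and 50.5 in myeloid progenitors, of which 1 and 2 arrays were well above background. The fitted changes were 0.41 (95% interval -0.51 to 1.34) in progenitors and 0.42 (-0.33 to 1.18) in myeloid progenitors. Both intervals run from a fall to a rise, and no least size of a difference is read from these values. In HE intensity ranged from 75.7 to 231.5 without Dox and from 56.2 to 146 with Dox, and the change was -0.50 (95% interval -1.25 to 0.26). The direction was not the same on both slides, with 0.68 on slide 1 and -1.76 on slide 2, and without uninduced array 3 or induced array 2 the change was -0.05 or -0.18. In HE2 the arrays lay between 46.8 and 86.7 without Dox and between 89.9 and 112 with Dox, and the change of 0.78 (95% interval 0.02 to 1.53) did not pass, with an adjusted P of 0.158 in limma. The highest mean level was 6.96 ± 0.82 in HE without Dox and the lowest 5.24 ± 0.05 in progenitors without Dox.

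Ubash3b, the gene of the phosphatase STS-1, was bright on every array and rose in progenitors. Its intensity there was 7686 and 6668 without Dox and 15169 and 18095 with Dox. The groups did not overlap, and the change was 1.21 (SE 0.237, adjusted P = 0.00409 in limma). It fell short of the P threshold, with changes of 1.11 and 1.08, without uninduced array 2 (adjusted P = 0.0636 in limma) or induced array 2 (adjusted P = 0.058 in limma), and with the slide as a block (1.01), and it was 0.98 between the 2 progenitor arrays of slide 1.
In HE the intensity was 6271, 7696 and 5861 without Dox and 6043, 5200.25 and 3371 with Dox. In HE2 it was 8778, 8522 and 8395 without and 6945, 9293 and 7655 with. In myeloid progenitors it was 24699, 23295 and 24821 without and 27159, 30550.4 and 23319 with Dox. In each of these 3 stages the groups overlapped, and the changes were -0.47 (95% interval -0.88 to -0.07), -0.12 (-0.52 to 0.29) and 0.15 (-0.26 to 0.55). The order of levels ran from myeloid progenitors with Dox (14.71 ± 0.20) and without Dox (14.57 ± 0.05), which lay within their spread, to progenitors with Dox (14.02 ± 0.18) and then to HE2 without Dox (13.06 ± 0.03), HE2 with Dox (12.95 ± 0.21), progenitors without Dox (12.81 ± 0.14) and HE without Dox (12.68 ± 0.20), each within the spread of its neighbour, and to HE with Dox (12.21 ± 0.44).

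Lat2, the adaptor gene, passed the threshold for Dox in no stage. Its intensity in HE2 was 77.2, 58.8 and 81.4 without Dox and 169.6, 120.2 and 135 with Dox, so that the groups were apart. The change there, 0.97 (SE 0.326, adjusted P = 0.0484 in limma), missed both the P threshold and 2-fold. In HE the arrays ranged from 62.9 to 93.1 without and from 90.6 to 148 with Dox, and in progenitors they were 92.1 and 88.3 without and 128.1 and 127.8 with. In myeloid progenitors the order of the means turned, with 766, 232 and 269 without and 260.5, 239 and 214 with Dox, and uninduced array 1 stood above all the others. Without it the change there was -0.08. The changes were 0.63 (95% interval -0.06 to 1.31) in HE, 0.50 (-0.33 to 1.34) in progenitors and -0.61 (-1.30 to 0.07) in myeloid progenitors. The highest mean level was 8.50 ± 0.94 in myeloid progenitors without Dox, and the lowest, in HE and HE2 without Dox, were 6.17 ± 0.32 and 6.16 ± 0.25 and lay within their spread.

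Wt1, the gene of the zinc finger factor, differed little with Dox in HE and clearly in progenitors. In HE its intensity was 1127, 1137 and 817 without Dox and 1648, 1852 and 814 with Dox, which overlapped. In HE2 it was 536, 531 and 336 without and 1168 and 1821 with Dox, without the array of the flagged spot, and the groups were apart. In progenitors it was 145 and 51.8 without and 1762 and 3339 with Dox, and in myeloid progenitors 171, 179 and 139 without and 2579.6, 907 and 1004 with. All induced arrays of the last 3 stages thus lay above the uninduced ones, whose values were lower from stage to stage up to progenitors.
Wt1 changed by 0.42 (SE 0.435, adjusted P = 0.633) in HE and by 1.67 (SE 0.486, adjusted P = 0.0245) in HE2, neither called in limma. It rose by 4.81 (SE 0.533, adjusted P = 3.03e-05) in progenitors and by 3.04 (SE 0.435, adjusted P = 0.000109) in myeloid progenitors, both called. In progenitors it ranked 2 of 15202 genes. With outlier spots kept, HE2 had 3 induced arrays and its change of 1.71 was called (adjusted P = 0.00917 in limma), and within slides the difference was 0.54 and 0.59 in HE, 1.13 and 2.44 in HE2 and 3.60 in progenitors. Mean levels with Dox were 11.24 ± 0.65 in progenitors, 10.51 ± 0.45 in HE2, 10.40 ± 0.64 in HE and 10.38 ± 0.83 in myeloid progenitors, of which the last 3 lay within their spread. HE without Dox (9.99 ± 0.27) followed, within the spread of its neighbour, and then HE2 (8.84 ± 0.38), myeloid progenitors (7.34 ± 0.19) and progenitors (6.44 ± 1.05) without Dox, the last 2 within their spread.

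Pou4f1, the POU-domain factor gene, was called in no stage and had a negative fitted change in all 4, though not on each slide. In HE the arrays ranged from 950.1 to 2588 without Dox and from 457 to 1214 with Dox, and in HE2 from 699 to 1467 and from 568 to 1039. In progenitors they were 851 and 697 without and 556 and 294 with Dox, and in myeloid progenitors 336, 295 and 279 without and 236, 219 and 178 with Dox. The groups overlapped in the first 2 stages and not in the last 2, though the uninduced progenitor array left out of the fit (377) lay between the induced ones. The changes were -0.83 (95% interval -1.65 to -0.01), -0.42 (-1.25 to 0.40), -0.93 (-1.94 to 0.08) and -0.53 (-1.35 to 0.30) in this order of stages, and the smallest adjusted P in limma was 0.182, in HE. Within slides 1 and 2 the difference was -1.78 and -0.19 in HE and -1.05 and 0.26 in HE2. Levels were highest in HE without Dox (10.50 ± 0.75) and lowest in myeloid progenitors with Dox (7.71 ± 0.21), and from the first to the fifth of the 8 groups each lay within the spread of its neighbour.

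Without Dox, the stages were compared in their order. From HE to HE2 limma called 0 of the 8 genes, where it called 5.07% of all genes, and 3 (Cav1, Ncam1 and Wt1) had an unadjusted P under 0.05. From HE2 to progenitors 3 of 8 were called and all were lower, where 3.62% of genes were called lower. Wt1 fell by 2.40 (SE 0.486, adjusted P = 0.00361), Trh by 1.63 (SE 0.4, adjusted P = 0.0131) and Ncam1 by 1.44 (SE 0.291, adjusted P = 0.0031). Without uninduced progenitor array 2, none of the 3 passed (changes of -1.66, -1.40 and -1.04, on 1 progenitor array assumed to vary like the other groups), and Trh also failed when array 1 of uninduced progenitors (-1.86) or array 1 or 2 of uninduced HE2 (-1.51, -1.60) was left out. With the mean of its probes Ncam1 was not called (-0.69).
From progenitors to myeloid progenitors 2 of 8 were called higher, where 13.9% of all genes were called in either direction. Lat2 rose by 2.01 (SE 0.364, adjusted P = 0.000447) and Ubash3b by 1.76 (SE 0.216, adjusted P = 9.12e-06), where the median of all genes moved by -0.12. Both calls were lost with the slide as a block, with changes of 1.99 and 1.43, since all myeloid progenitor arrays lay on a slide that held neither of the 2 uninduced progenitor arrays of the fit. The array of uninduced progenitors left out of the fit lay on that slide and read 118 for Lat2 and 8261 for Ubash3b, below the 3 uninduced myeloid progenitor arrays for both genes.

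With Dox, limma called 0 of 8 from HE to HE2, where it called 1.62% of all genes higher and 1.47% lower, and 2 (Jup and Ubash3b) had an unadjusted P under 0.05. From HE2 to progenitors with Dox, Trh fell by 3.15 (SE 0.4, adjusted P = 4.21e-05) and Ubash3b rose by 1.07 (SE 0.216, adjusted P = 0.00227), which made 1 of 8 called lower, against 5.34% of genes, and 1 of 8 called higher, against 2.02%. Ubash3b was not called without induced HE2 array 1 (0.97) or induced progenitor array 2 (0.94), and Ncam1, which did not pass (-1.09, adjusted P = 0.0157), passed without induced HE2 array 2 (-1.25). Wt1 changed by 0.73 (95% interval -0.39 to 1.86) over this step, where it fell without Dox.

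Whether the Dox response itself differed from stage to stage was asked with interaction terms. Between HE2 and HE the response of 0 of 8 genes differed past the threshold in limma, against 1.34% of genes, and 1 (Cav1) had an unadjusted P under 0.05. Between progenitors and HE2, 2 of 8 differed and both had the larger response in progenitors, against 0.237% of genes in that direction. The response of Wt1 was larger by 3.14 (SE 0.721, adjusted P = 0.114 in limma) and that of Ubash3b by 1.33 (SE 0.305, adjusted P = 0.108 in limma), and neither difference passed at an adjusted P of 0.05. Both calls were lost without array 1 of uninduced HE2, array 1 of induced HE2, or array 2 of uninduced or of induced progenitors, with values of 2.39 to 3.02 for Wt1 and 1.20 to 1.31 for Ubash3b, and that of Wt1 also without array 2 of uninduced HE2 (3.03).
Between myeloid progenitors and HE, 1 of 8 differed upwards, against 2.96% of genes, and it was Wt1 with a response larger by 2.62 (SE 0.615, adjusted P = 0.0135). This call was lost without uninduced HE array 1 or 2, induced HE array 3, any 1 uninduced myeloid progenitor array or induced myeloid progenitor array 1 (2.14 to 2.69). Between myeloid progenitors and progenitors limma called 0 of 8, against 0.835% of genes upwards and 0.664% downwards, with 3 (Lat2, Ubash3b and Wt1) at an unadjusted P under 0.05. For Ncam1, the change differed by 0.34 between HE2 and HE (95% interval -0.44 to 1.11) and by -0.01 between myeloid progenitors and HE (-0.78 to 0.76). For Trh, the response in myeloid progenitors differed from that in HE by -1.31 (-2.37 to -0.25), which was not called.

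Genes known to act with the 8 were followed in lists. For Trh, 4 of 8 genes for receptors, processing and breakdown of the hormone were tested, and 1 rose in each of HE, HE2 and myeloid progenitors and 0 in progenitors. Qpct, the glutaminyl cyclase that closes the end of the hormone, rose by 1.65 in HE and 2.12 in HE2, and Cpe, the carboxypeptidase that trims hormone precursors, by 2.20 in myeloid progenitors. The receptor genes Trhr and Trhr2 did not reach the level required for testing on any array. For Ncam1, 5 of 7 partners and polysialyltransferases were tested. The kinase gene Fyn rose in HE and, by 1.20, in HE2, and the receptor gene Fgfr1 by 1.28 in myeloid progenitors. Neither St8sia2 nor St8sia4, the polysialyltransferases, passed in any stage.
Among 10 tested genes of junction partners of plakoglobin, Pkp2, a desmosomal plaque gene, fell by 2.90 in HE and by 1.69 in HE2. The cadherin genes Cdh2 and Cdh5 rose by 2.05 and 1.69 in myeloid progenitors, and 0 of 10 passed in progenitors. Of 6 tested caveolins and cavins, Cav2, the partner of caveolin-1, rose in all 4 stages, by 1.59, 2.78, 1.32 and 2.08 from HE to myeloid progenitors. Cavin1 rose by 1.70 in progenitors and by 2.63 in myeloid progenitors, and Cavin3 by 1.74 in the latter. Median changes of these 6 were -0.08, 0.26, 1.18 and 1.52, beside -0.01, -0.03, -0.04 and -0.02 for all genes.
For Ubash3b, 5 genes of its relative, of the CBL ubiquitin ligases and of the SYK kinases were tested. In HE 3 rose, namely Zap70 (1.83), Syk (1.15) and Cblb, in HE2 1 rose (Syk, 1.08), and 0 passed in the 2 later stages. Of 10 genes of the adaptor pathway of LAT and LAT2, 1 rose and 4 fell in HE and in HE2, and 1 fell in each later stage. Lat, the relative of Lat2, fell by 1.98 in HE, 1.05 in HE2 and 1.53 in myeloid progenitors, and Fcer1g, a signalling chain of Fc receptors, by 1.53 in HE, 2.96 in HE2 and 2.01 in progenitors. Plcg2 and Vav1, signalling genes of the pathway, fell in HE and HE2, by 1.14 and 1.34 in HE.
Among 5 tested partners of WT1, the corepressor gene Basp1 fell by 1.62 in HE, 1.65 in HE2 and 1.99 in progenitors, and no other partner passed. Of the other class IV POU factors, Pou4f2 was tested and rose by 2.15 in HE and 2.61 in HE2, and did not pass in progenitors (0.75) and myeloid progenitors (0.74). It was well above background on no uninduced array of any stage and on no induced array of progenitors or myeloid progenitors. The size of the changes in HE and HE2 therefore depends on the background, and no difference is read from it in the later stages.

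Other genes listed as raised in t(8;21) leukaemia or by RUNX1-ETO were read beside the shares of all genes called higher given above, 3.03% to 5.17%. Of 14 tested, 0 passed in HE and in HE2, 1 rose in progenitors (Cacna2d2, a calcium channel subunit gene, by 1.95) and 1 in myeloid progenitors (Jag1, a Notch ligand gene, by 1.38). Their median change lay between -0.21 and 0.39. Of 11 tested genes listed as lowered, 2 fell in HE2 and 2 in progenitors and 0 passed in HE and in myeloid progenitors. Spi1, the gene of PU.1, fell by 2.73 in HE2 and by 2.23 in progenitors, Csf1r, the receptor gene of macrophage growth factor, by 1.77 in HE2, and Rassf2 by 1.45 in progenitors. Whether the 8 differed from these lists was not tested.

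Endothelial markers moved with several of these results. The summed intensity of 7 such markers was 41170 to 50724 in HE2 without Dox and 84181 to 102199 with Dox, 16620 to 17340 and 33529 to 42592 in progenitors, and 19647 to 21559 and 44571 to 53190.2 in myeloid progenitors. In HE it was 69713 to 124492 without and 70657 to 110924 with Dox, which overlapped, while Trh and Ncam1 rose. In progenitors 3 of the 7 were called higher and in myeloid progenitors 5 were called higher and 1 lower. In HE2 2 were called higher, and in HE 1 was called lower. All 7 were well above background on at least 1 array of every group in the fit. The summed intensity of 6 early haematopoietic markers ran from 23276 to 34006 without and from 17146 to 24073 with Dox in HE2, and the ranges overlapped in all 4 stages. Single markers of this list did move, with Itga2b called lower in HE (-3.21) and Spi1 in HE2 (-2.73) and in progenitors (-2.23). Itga2b, Kit, Ptprc and Spi1 were called higher in no stage. The other genes of the list, Gfi1b and Myb, are part of the sums but are not given singly here. Overlap of the sums therefore does not show that each marker stayed level. The part of such cells in the rises of Wt1, Ubash3b, Trh and Ncam1 was not tested.
Markers of other cell types were read beside the genes known from the same tissues. Wt1 is also a gene of mesothelium and epicardium. Of 5 markers of those tissues, Upk3b was well above background on no array of any group in the fit. Msln and Tbx18 were so on no progenitor array of the fit, and Tcf21 and Tbx18 on no myeloid progenitor array. Background signal therefore made up part of the sums in these stages. The summed intensity of the 5 in progenitors was 201 to 231 without and 209.9 to 240 with Dox, which overlapped while Wt1 rose. In myeloid progenitors the sums were apart and higher with Dox, 164 to 203 without and 205 to 224 with. They were also apart in HE, 231 to 385 without and 547 to 629 with Dox. In HE2 they overlapped, 228 to 286 without and 268 to 289 with Dox. Msln and Lrrn4, the 2 that were tested, rose in HE, by 1.94 and 1.11, where Wt1 was not called. Ncam1 and Pou4f1 are also genes of neural tissue. Of 4 tested neural markers, limma called 0 in any stage, with Tubb3 at an unadjusted P under 0.05 in HE (-1.37) and in progenitors (2.18), and the sums of the 5 listed with and without Dox overlapped in HE, HE2 and myeloid progenitors. In progenitors the neural sums were apart and lower with Dox, 2703 to 2779 without and 2322 to 2614 with Dox.
Smooth muscle markers, which share caveolae with endothelium, were lower with Dox, 1 of 3 tested in HE and 3 of 3 in HE2, where the sum of the 4 listed was 29179 to 102852 without and 10345 to 10976 with Dox. Epithelial markers, which share plakoglobin, were called lower for 1 of 2 tested in HE and 2 of 2 in HE2. Macrophage markers, beside Lat2, were called lower for 2 of 4 tested in HE2 and 0 of 4 in the other stages. Of 4 mast cell markers 1 was called higher in HE, progenitors and myeloid progenitors. Their sum was 576 to 692 without and 1390.4 to 2004 with Dox in progenitors and 582 to 1269 and 1624 to 3553 in myeloid progenitors, with Cma1 well above background on no array of induced progenitors or uninduced myeloid progenitors. Of 5 cardiac markers 1 was called higher in those same stages and 1 lower in HE2. Their sum in HE was nevertheless lower with Dox, 6359 to 11654 without and 4517 to 6211 with, and the sums overlapped in HE2 and progenitors. In myeloid progenitors the sum was 1337 to 1687 without and 4981 to 6586 with Dox, with Myl7 well above background on no array of that stage. Of 2 tested pluripotency markers limma called 0, with Dppa4 at an unadjusted P under 0.05 in progenitors (1.60). The part of these cells in the results was not tested.

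**Figure D4:**
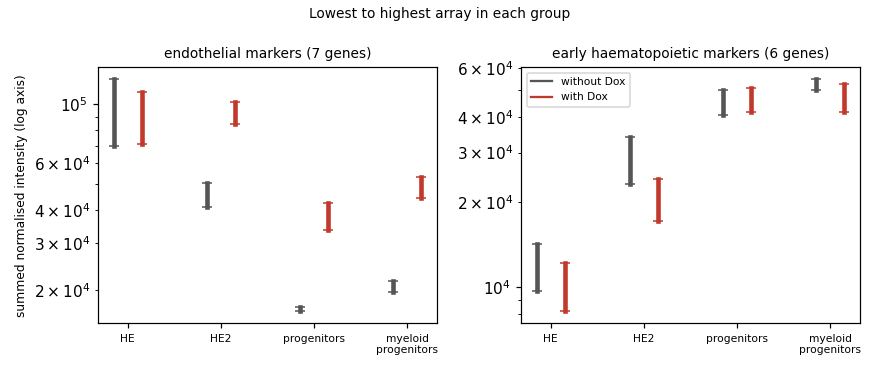
Summed normalised intensity on a log axis (vertical) of the 7 endothelial and the 6 early haematopoietic markers by stage (horizontal), grey without and red with Dox; each bar runs from the lowest to the highest array of a group. The endothelial bars are apart in HE2, progenitors and myeloid progenitors, where the red bars are higher, and overlap in HE.

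The genes whose levels ran most like those of the 8 were named by Pearson's correlation over the arrays of the fit, which share groups, slides and normalisation. For Trh these were Spink8 (r = 0.97), Adra2a (0.97) and Rnf207 (0.96) over 22 arrays, and for Ncam1 Slc29a4 (0.98), Tmcc3 (0.97) and Tgfbr3 (0.97). For Wt1, over 21 arrays, they were Ptprb (0.92), Tspan12 (0.91) and Maged1 (0.90), and for Ubash3b F2rl2 (0.96), Mbnl1 (0.95) and Nrip3 (0.95). Pou4f1 ran with Avpi1, Pard3 and Mrpl4 (each 0.95), and Lat2 with Smap2 (0.92), 1700001L05Rik (0.91) and Tifa (0.90). Weaker likeness was found for Cav1, with Heg1, Lhfpl2 and Cgnl1 (each 0.89), and for Jup, with Lad1 (0.86), Nckipsd (0.85) and Nradd (0.85). Among the 8 themselves the highest values were 0.90 between Ncam1 and Trh, 0.83 between Ncam1 and Wt1 and 0.75 between Trh and Wt1.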

How the data were processed

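Gene expression was measured on 23 one-colour Agilent mouse arrays. Spot intensities with local background and flags were deposited by the authors as Feature Extraction output (10.7.1.1 in the submitters' processing notes, another version in the file headers). The authors also deposited log2 values, background corrected and quantile normalised, used as an alternative. Median intensities were corrected with normexp (offset 16) on all spots, spots with an outlier flag and control spots were left out, arrays were quantile normalised and spots of a probe averaged. Symbols came from the RefSeq table (GRCm38.p6) through the accession, for 26582 of 55681 probes. Genes that reached 6.5 (log2) on 1 or more arrays were fitted with limma 3.58.1 in R 4.3.3, as 8 group means over 22 arrays with 14 residual degrees of freedom, and the fit was tested on simulated data. The number of arrays limits the precision. Named genes were the 8, genes of the lists that passed the threshold (at most the 4 largest changes for a list and stage) and the 3 most like each of the 8. The members and lists were chosen with earlier results of these data known. Alternatives were another offset, no background correction, other scalings, filters, thresholds, probes, samples and blocks, and each array left out. Same-numbered uninduced HE and HE2 arrays deviated together from their group means (r = 0.39, 0.80 and 0.61), and the replicate block changed no call between them. These arrays also shared a slide number by number, so that pairing by number cannot be told apart from the slide. The labels state no pairing. Same-numbered induced HE and HE2 arrays, which also shared a slide number by number, gave r = 0.19, -0.48 and -0.01. The labels of the array left out name it techrep in 1 field and replicate 3 in another, and those of induced myeloid progenitor array 3 call it both a biological and a technical replicate.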

Additional observations from a re-analysis of the deposited data

Results flagged for a closer look

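Interaction terms for the Dox response passed the threshold in 3 cases. The response of Ubash3b was larger in progenitors than in HE2 by 1.33 (log2 1.3259), and it was not called without uninduced HE2 array 1, induced HE2 array 1, uninduced progenitor array 2 or induced progenitor array 2, with values of 1.31, 1.23, 1.22 and 1.20. The response of Wt1 was larger in progenitors than in HE2 by 3.14 (log2 3.136), and it was not called without uninduced HE2 array 1 or 2, induced HE2 array 1, uninduced progenitor array 2 or induced progenitor array 2, with values of 3.02, 3.03, 2.82, 2.39 and 2.67. The response of Wt1 was larger in myeloid progenitors than in HE by 2.62 (log2 2.6207), and it was not called without uninduced HE array 1 or 2, induced HE array 3, any 1 of the uninduced myeloid progenitor arrays or induced myeloid progenitor array 1, with values from 2.14 to 2.69. Groups of 2 or 3 arrays were not searched for outlying arrays.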

How the results depend on the processing

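Of 503 values of called changes under the alternatives, 441 were called in the same direction, 62 lost the call and 0 changed sign, and of 2113 values of changes not called, 23 gained a call and 68 took the other sign without one. Calls of Trh and Ncam1 with Dox held in all 4 stages, and those of Wt1 in progenitors and myeloid progenitors, under every alternative run, 2 of which, on outlier spots, were chosen after seeing the data.

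Counts of called members that moved by over 1.5 times were as follows. With the processed signal scaled to the 75th percentile, 1 was called from HE2 to progenitors with Dox, 1 for progenitors against HE2 and 0 for myeloid progenitors against HE. This scaling moved the median of all genes by up to -0.30. At an adjusted P of 0.05 in limma, 0 were called for progenitors against HE2. At 0.001 that count and those for myeloid progenitors against HE and from HE2 to progenitors without Dox were 0, and that with Dox was 1. With 2-fold alone, 2 were past it from HE to HE2 without Dox, 2 for HE2 against HE, 3 for myeloid progenitors against HE and 4 for myeloid progenitors against progenitors. With only the groups compared in the fit, 1 was called from HE2 to progenitors without Dox, 1 with Dox and 1 for progenitors against HE2. With the slide or the scan date as a block, 0 were called from progenitors to myeloid progenitors, 1 from HE2 to progenitors with Dox and 0 for progenitors against HE2. Leaving out 1 array at a time gave 0 to 1 for myeloid progenitors against HE, 0 to 2 for progenitors against HE2, 1 to 3 from HE2 to progenitors with Dox and 0 to 3 without.

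With the replicate number as a replicate block, 1 was called from HE2 to progenitors with Dox, where Ubash3b was lost (0.98), and no other count moved. Same-numbered arrays with and without Dox did not deviate together in every pair in HE (r = -0.06, 0.70 and -0.10), HE2 (0.36, -0.54 and -0.45) or myeloid progenitors (0.21, -0.13 and -0.01), so that most numbers may be no more than a name. Progenitors had only 2 pairs, whose value (0.23) was the same by construction, since deviations in a group of 2 arrays mirror each other. Signal over background limits Cav1, which was not well above background on 5 uninduced arrays.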
